A study of Mus musculus with 3 samples.

Results

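The unfolded protein response and the integrated stress response were examined through 10 genes, Hspa5, Hsp90b1, Sdf2l1, Herpud1, Atf4, Ddit3, Xbp1, Asns, Chac1 and Trib3. The genes were taken by symbol from the deposited expression table, which held all 10 among 22737 genes analysed. The table comes from RNA-seq of 3 mouse pancreatic tumour cell lines of the HI-Panc progression model, labelled localized, invasive and metastatic, with 1 library each. All 3 lines were derived, without immortalization, from transgenic mice that carry p16-/- and develop such tumours, and were grown in DMEM with 10% serum. The treatment text is shared by the 3 libraries and names cobalt chloride, a chemical mimic of hypoxia, at 100 ng/ml for 24 h; it does not state which libraries were treated, so treatment is not a contrast here. As tissue of origin the labels give body wall (localized), pancreatic tissue (invasive) and liver (metastatic), and groups were taken from the stage label. Body wall for the localized line and pancreatic tissue for the invasive line may be exchanged in the labels. If the stages themselves were exchanged, each invasive against localized direction would turn round, and the files do not settle this. Whether a line is a single clone, and the age of the mice, are not given in the sources used here.

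The unfolded protein response is the reaction of a cell to misfolded protein in the endoplasmic reticulum (ER). Sensors in the ER membrane switch on the factors ATF6, XBP1 and ATF4, which raise chaperones, components of ER-associated degradation (ERAD) and amino acid supply. The integrated stress response converges on phosphorylation of eIF2alpha, which lowers general translation while Atf4 mRNA is translated more, and it can start from amino acid shortage, heme shortage or double-stranded RNA as well as from the ER. In secretory tissue such as the pancreas these pathways keep the ER working under a high protein load. Much of the control lies outside mRNA abundance, in splicing of Xbp1, cleavage of ATF6 and translation of Atf4, none of which a gene-level value measures.

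Sequences around the starts of 6 members are shown because they carry the short elements through which the stress factors are known to act, and because the members differ in which element they hold. Sequence came from RefSeq, build GRCm38.p6, in windows of 250 bases before to 50 after the annotated start, and all 10 members matched 1 window each. The ER stress response element was searched as CCAAT and CCACG with 9 bases between them. The second ER stress response element was searched as ATTGG and CCACG with 1 base between them, the unfolded protein response element as TGACGTGG, and the C/EBP-ATF response element as TGATGNAA. Each was searched on both strands. Capitals mark the matches, and every stretch is written 5′ to 3′ on the strand of its gene.
Hspa5: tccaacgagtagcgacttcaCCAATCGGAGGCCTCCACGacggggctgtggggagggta
Hsp90b1: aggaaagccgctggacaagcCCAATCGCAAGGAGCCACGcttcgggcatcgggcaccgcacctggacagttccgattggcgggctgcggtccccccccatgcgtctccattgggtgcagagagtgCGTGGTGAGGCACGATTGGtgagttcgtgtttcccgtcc
Herpud1: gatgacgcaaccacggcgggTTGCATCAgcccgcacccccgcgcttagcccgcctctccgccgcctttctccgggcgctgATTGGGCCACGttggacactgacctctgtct
Chac1: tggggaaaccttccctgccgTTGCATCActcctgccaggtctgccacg
Asns: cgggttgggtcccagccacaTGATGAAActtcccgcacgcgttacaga
Trib3: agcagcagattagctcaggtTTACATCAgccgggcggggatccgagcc

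The Hspa5 stretch lies at chr2:34772005-34772063 (plus strand) and the Hsp90b1 stretch at chr10:86705513-86705676 (minus strand). The Herpud1 stretch lies at chr8:94386297-94386407 (plus strand) and the Chac1 stretch at chr2:119351029-119351076 (plus strand). The Asns stretch lies at chr6:7693205-7693252 and the Trib3 stretch at chr2:152344019-152344066, both on the minus strand. The Trib3 match lies at bases 15 to 22 after the RefSeq start, inside that transcript, and upstream of the gene's start in GENCODE M21 at 152344032. The Hspa5 and Asns matches lie before the RefSeq start but inside the GENCODE M21 genes, which start at 34771970 and 7693254. The ER stress response element was found in 2 members, the chaperone genes Hspa5 and Hsp90b1, with a pair of facing copies in Hsp90b1. It is rare, being present in 0.119% of the 32851 windows of all genes. The second ER stress response element was found in Herpud1, against 0.0365% of all windows. The C/EBP-ATF element was found in 4 members, Herpud1, Chac1, Asns and Trib3, against 3.97% of all windows, and its form TGATGCAA in Herpud1 and Chac1, against 0.895%. Herpud1 was the 1 member whose window held both kinds, with the C/EBP-ATF match from base -112 to -105 and the ER element from base -52 to -42, counted from the annotated start. The unfolded protein response element was in no member window, against 0.676% of all windows. The windows of Atf4, Ddit3, Xbp1 and Sdf2l1 held no full match. The CCACG part, inside or outside a full element, lay in 7 of the 10 member windows, Atf4 and Sdf2l1 included, against 32.8% of all windows. In Hspa5 and Hsp90b1 it lay only inside full elements. The members were picked as known genes of these pathways, so finding such elements in them is no new result. The shares of all windows are given for scale only and are not a test. These matches are descriptions of sequence and are not binding sites measured in these cells.

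**Figure D1:**
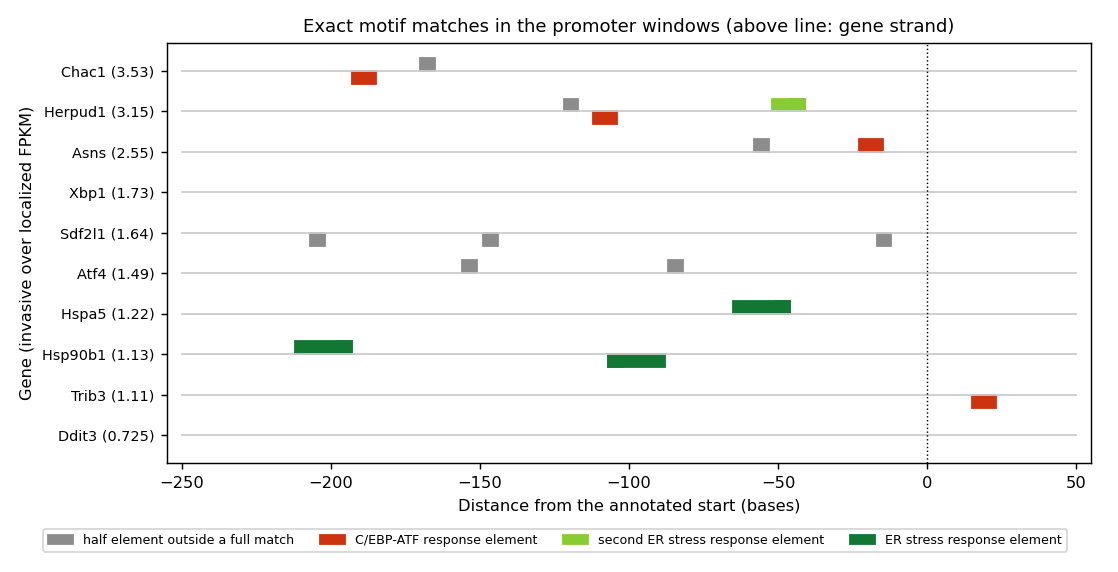
Exact motif matches in the promoter windows of the 10 members. The x axis is the distance from the annotated start in bases; boxes above a line are on the gene's strand and boxes below it on the other strand. Genes run from the highest invasive over localized FPKM ratio (Chac1, 3.53) to the lowest (Ddit3, 0.725), given in brackets; the first 3 genes each hold a C/EBP-ATF element, as does Trib3 with a ratio of 1.11.

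The 3 libraries had about 42700000, 38600000 and 40600000 fragments in the order localized, invasive, metastatic, estimated from the steps of whole fragments in low values. Their values summed to 572303, 575244 and 565009 FPKM, and 11219, 11165 and 11112 genes reached 1 FPKM (fragments scaled by transcript length and library size, a level per length that can be set between genes). Each stage has 1 library, so differences lack a check against replicates and carry no p-values. Differences are in log2(FPKM + 1), a scale on which low genes show less than their true fold, and a gene was called higher or lower at 1 or more on that scale (2-fold). Counts of members stand beside the share of the 11404 genes with a mean of at least 1 FPKM that passed the same threshold. All 10 members passed that filter. The member with the fewest fragments, Chac1 in the localized library, had about 359, the count on which its ratios rest. The intervals given with ratios are 95% exact binomial intervals from these approximate fragments, and they cover counting error only, not variation between cultures.

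Epithelial and fibroblast marker levels also differed between the libraries. The 9 epithelial markers (Epcam, Cdh1, Krt7, Krt8, Krt18, Krt19, Muc1, Cldn4 and Cldn7) summed to 1196, 6391 and 6898 FPKM in the localized, invasive and metastatic libraries, and 4, 8 and 7 of them reached 1 FPKM. Krt8 (765, 2356 and 2247 FPKM), Krt18 (227, 1135 and 977 FPKM) and Krt19 (181, 1970.2 and 2365 FPKM) made up most of each sum. Cdh1 had 20.7, 218 and 118 FPKM, lower in the metastatic than in the invasive library. Cldn4 had at most 0.0891 FPKM, and Cldn7 had 0.676, 1.33 and 0.244 FPKM (both chosen after their values were seen). Of the 7 epithelial markers past the filter, 4 were higher in the metastatic than in the invasive library. The 9 fibroblast markers (Col1a1, Col1a2, Col3a1, Dcn, Lum, Pdgfra, Pdgfrb, Thy1 and Fap) summed to 565, 90.5 and 13.9 FPKM. Lum, Thy1 and Fap were listed at 0 in the metastatic library and at 0.0128, 0.0156 and 0.0384 FPKM in the invasive library. Fap had 0.0433 FPKM in the localized library. Between the invasive and metastatic libraries, Col1a1 went from 46.3 to 3.45 FPKM and Col1a2 from 33.4 to 0.0833 FPKM. Only Pdgfra (1.09 to 1.97 FPKM) and Pdgfrb (0.838 to 1.84 FPKM) were higher in the metastatic library. The part of the epithelial and fibroblast markers in the differences of the stress genes was not tested. In these bulk libraries fewer cells of a type and less RNA per cell cannot be told apart. Markers of the tissues of origin were near 0 or low. The 6 hepatocyte markers summed to at most 0.0586 FPKM and the 6 skeletal muscle markers to at most 0.798 FPKM in any library. The 7 acinar markers summed to 7.61, 1.23 and 0.465 FPKM in the localized, invasive and metastatic libraries.

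Across the 10 genes the common picture was a lower level in the localized library and a slightly higher level in the invasive than in the metastatic library. The localized library was the lowest of the 3 for 8 members, where 41.8% of all genes tested had that order. The full order, lowest in the localized, then metastatic, then invasive, held for 7 members, Hspa5, Hsp90b1, Sdf2l1, Atf4, Xbp1, Asns and Chac1, against 19.1% of all genes tested. The exceptions were Herpud1, whose metastatic and invasive values were nearly equal, Trib3, lowest in the metastatic library, and Ddit3, highest in the localized library. The summed level of the 10 members was 1144, 1560.0 and 1425 FPKM in the localized, invasive and metastatic libraries, and most of it was Hspa5 and Hsp90b1.

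**Figure D2:**
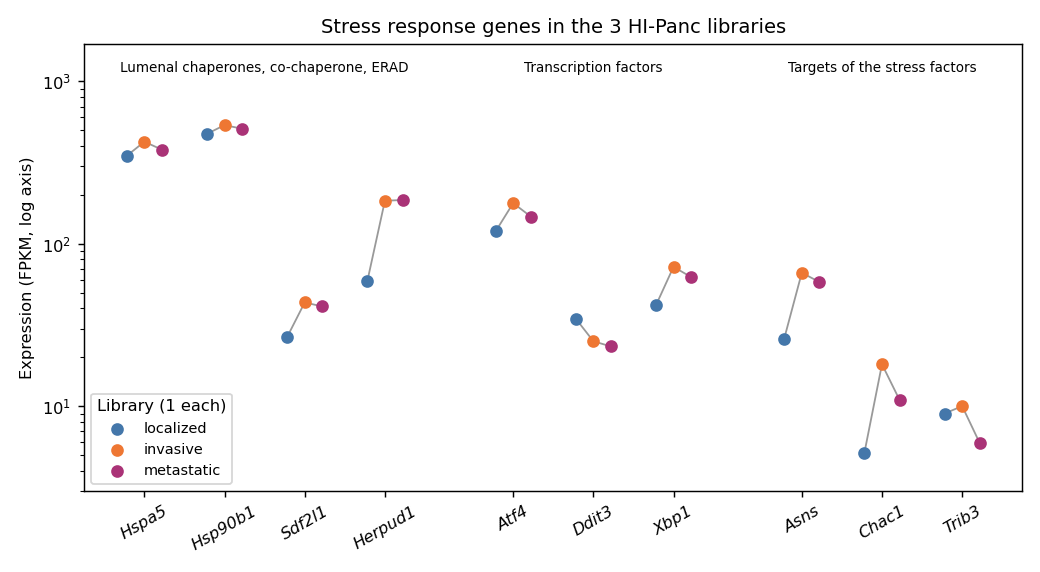
FPKM of the 10 members on a log axis, with 1 point for each library (localized, invasive, metastatic from left to right) joined by a grey line, grouped by role. Hspa5 and Hsp90b1 lie highest with nearly flat lines, whereas Herpud1 stands at 184 FPKM (invasive) and 186 FPKM (metastatic), against 58.6 FPKM (localized).

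The lumenal chaperones were abundant and nearly level. Hspa5 (ENSMUSG00000026864.13, chromosome 2, 34771970 to 34777547, plus strand, 9 exons in its longest coding transcript) encodes BiP, the ER Hsp70 that holds the sensors inactive until misfolded protein binds it. It had 348, 425 and 379.6 FPKM in the localized, invasive and metastatic libraries and ranked between 192 and 225 of all genes by level. The invasive over localized ratio was 1.22 (1.20 to 1.24), beyond counting error and under 2-fold. Hsp90b1 (ENSMUSG00000020048.13, chromosome 10, 86690209 to 86705509, minus strand, 18 exons), the ER Hsp90 known as GRP94, had 475, 538 and 511 FPKM, the highest level of the members in each library. Its invasive over localized ratio was 1.13, with an interval of 1.11 to 1.15, and the Hsp90b1 over Hspa5 ratio within a library stayed between 1.27 and 1.36. A stretch of 273 bases is shared at 100% identity with 1810014B01Rik, an overlapping gene on the opposite strand with 2.26, 2.29 and 1.98 FPKM, so the split of reads between them is uncertain. Exons of Gm15344 and Gm25745, on the same strand, also overlap those of Hsp90b1. Hspa5 and Hsp90b1 are the members with the ER stress response element shown above.

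Sdf2l1 and Herpud1, which also serve ER protein quality, differed more. Sdf2l1 (ENSMUSG00000022769.9, chromosome 16, 17130138 to 17132383, minus strand, 3 exons) encodes a partner of ER chaperone complexes that is strongly induced by ER stress. It had 26.6, 43.5 and 41.1 FPKM in the localized, invasive and metastatic libraries, so the localized library was the low one and the other libraries were close. The ratios were 1.64 (1.52 to 1.76) for invasive over localized and 0.945 (0.886 to 1.01) for metastatic over invasive, and the second interval includes equality. Herpud1 (ENSMUSG00000031770.16, chromosome 8, 94386438 to 94395377, plus strand, 8 exons) encodes an ER membrane protein of the ERAD machinery. It had 58.6, 184 and 186 FPKM, and it ranked 453 (invasive) and 440 (metastatic) among all genes by level, against 1514 (localized). Both differences from the localized library were past 2-fold, at 1.64 (invasive) and 1.65 (metastatic), and the metastatic over invasive ratio was 1.01 (0.971 to 1.04). Within a library, Herpud1 stood at 0.168 (localized), 0.435 (invasive) and 0.489 (metastatic) of the Hspa5 level. For invasive over localized, the ratio of Herpud1 was 3.15 (2.99 to 3.31) where that of Hspa5 was 1.22.

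Among the transcription factors, Atf4 and Xbp1 were higher outside the localized library and Ddit3 was lower. Atf4 (ENSMUSG00000042406.8, chromosome 15, 80255184 to 80257541, plus strand, 3 exons) encodes the main effector of the integrated stress response. It had 119, 178 and 147 FPKM in the localized, invasive and metastatic libraries, with an invasive over localized ratio of 1.49 (1.43 to 1.56). Xbp1 (ENSMUSG00000020484.18, chromosome 11, 5520659 to 5525893, plus strand, 5 exons), whose mRNA is spliced by the sensor IRE1 to give the active factor, had 41.7, 72.1 and 62.3 FPKM. Its ratio was 1.73 (1.62 to 1.84) for invasive over localized and 1.49 (1.40 to 1.59) for metastatic over localized, and the spliced form is not separated in these values. Ddit3 (ENSMUSG00000025408.15, chromosome 10, 127290774 to 127296288, plus strand, 4 exons) encodes CHOP, a factor linked to cell death under lasting ER stress. It had 34.6, 25.1 and 23.3 FPKM, with an invasive over localized ratio of 0.725 (0.652 to 0.806), the opposite direction to Atf4. All 3 factor genes stayed within 2-fold in every pair of libraries.

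The Ddit3 value carries a limit of its own. Its exons overlap those of Mars, the methionyl-tRNA synthetase gene on the opposite strand and itself an ATF4-linked gene, and the sources used here do not say whether the counting used strand. Exons of Gm4189, also on the opposite strand, overlap those of Ddit3 too. Mars had 33.4, 50.8 and 51.0 FPKM in the localized, invasive and metastatic libraries, higher where Ddit3 was lower. Without strand, reads of the shared bases cannot be told apart. Relative to Atf4, Ddit3 stood at 0.291 (localized), 0.141 (invasive) and 0.158 (metastatic).

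The 3 members downstream of ATF4 split. Asns (ENSMUSG00000029752.12, chromosome 6, 7675169 to 7693254, minus strand, 12 exons) encodes asparagine synthetase, a classic target in amino acid shortage. It had 26.0, 66.3 and 58.1 FPKM in the localized, invasive and metastatic libraries, past 2-fold in both comparisons with the localized library (1.32 and 1.13). Its ratio was 2.55 (2.29 to 2.84) for invasive over localized and 2.23 (2.0 to 2.49) for metastatic over localized. Chac1 (ENSMUSG00000027313.3, chromosome 2, 119351229 to 119354381, plus strand, 3 exons) encodes an enzyme that breaks down glutathione. It had 5.14, 18.1 and 10.9 FPKM, with the highest over lowest ratio, 3.53, above that of the other 9 members. The invasive library was past 2-fold over the localized library (1.64), and the metastatic library stood between them.

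The metastatic over localized difference of Chac1 depends on the scale. It was 0.96 in log2(FPKM + 1), just under the threshold, but the ratio of the values was 2.12 (1.87 to 2.41), and the difference was 1.07 with a pseudocount of 0.1. Trib3 (ENSMUSG00000032715.9, chromosome 2, 152337422 to 152344032, minus strand, 4 exons) encodes a pseudokinase that is induced by ATF4 and CHOP and restrains them. It had 9.0, 10.0 and 5.91 FPKM in the localized, invasive and metastatic libraries, nearly level in the first pair and lowest in the metastatic library. Its invasive over localized ratio was 1.11 (1.01 to 1.23) and its metastatic over localized ratio 0.656 (0.584 to 0.735). The 4 members with the C/EBP-ATF element differed among themselves. Their metastatic over invasive ratios were 0.588 for Trib3, 0.602 for Chac1, 0.876 for Asns and 1.01 for Herpud1. In the same order of genes, the invasive over localized ratios were 1.11, 3.53, 2.55 and 3.15. Relative to Atf4, Asns was at 0.219, 0.373 and 0.394, Chac1 at 0.0432, 0.102 and 0.0740, and Trib3 at 0.0757, 0.0565 and 0.0401 in the localized, invasive and metastatic libraries.

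For invasive against localized, the pair that as labelled addresses invasive growth, Chac1, Herpud1 and Asns were called higher and no member was called lower. That is 3 of 10 members, where 8.78% of all genes tested were called higher and 6.07% lower. The median difference of the members was 0.63, against -0.00 over all genes tested, and 9 of 10 differences were above 0, against 49.8% of all genes. Members were chosen with earlier results of these data known, so the contrasts with all genes, here and in the other pairs, are descriptive only. Chac1 and Herpud1 had larger differences than 95.6% of genes tested and Asns than 93.8%, while Trib3 and Hsp90b1 lay near the middle at 62.7% and 65.8%. At 1.5-fold, 5 members were higher, the others being Xbp1 and Sdf2l1, against 15.1% of all genes tested.

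The metastatic and localized libraries, the ends of the progression as labelled, gave 2 calls. This comparison and the preceding one share the localized library and are not independent. Herpud1 and Asns were called higher, 2 of 10 members, where 9.08% of all genes tested were higher and 7.29% lower, and no member was called lower. The median difference was 0.44, against 0.00 over all genes tested, and 8 of 10 members were above 0, against 50.4% of all genes. At 1.5-fold, 4 members were higher, the others being Chac1 and Sdf2l1, where 15.9% of all genes tested were. Ddit3 and Trib3 were the members below 0, with differences of -0.55 and -0.53.

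Between the metastatic and invasive libraries, which as labelled separate spread from invasive growth, no member differed by 2-fold. In this pair 1.33% of all genes tested were called higher and 1.67% lower. The median difference of the members was -0.17, against -0.01 over all genes tested. The difference was below 0 for all members except Herpud1 (0.01), so 1 of 10 was above 0, where 48.6% of all genes tested were. Chac1 and Trib3 had the lowest values, each with a difference of -0.68 and ratios of 0.602 (0.547 to 0.661) and 0.588 (0.524 to 0.659). They are 2 of 10 members at least 1.5-fold lower in the metastatic library, a threshold passed downward by 5.35% of all genes tested and upward by 3.51%; no member passed it upward. The other 8 members lay between -0.27 and 0.01.

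**Figure D3:**
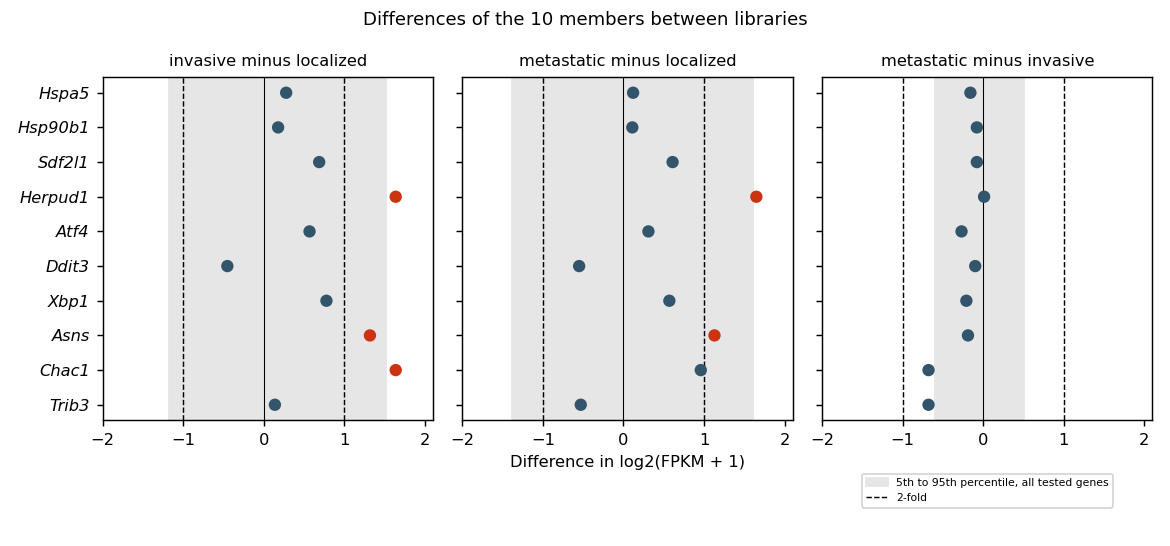
Difference of each member in log2(FPKM + 1) for the 3 pairs of libraries. The grey band spans the 5th to 95th percentile of the 11404 genes tested, dashed lines mark 2-fold, and red points are past it. Herpud1 and Chac1 lie outside the band for invasive minus localized, Herpud1 for metastatic minus localized, and Chac1 and Trib3 for metastatic minus invasive.

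Most other listed genes stayed within 2-fold. Over 12 further lists of sensors, factors, targets and chaperones, 132 genes were in the table and 130 passed the filter. The lists also hold 10 cytosolic heat shock genes and 7 mitochondrial chaperone and protease genes, which lie outside the ER. Of the 130 genes, 8 were called higher (6.15%) and 0 lower between invasive and localized, beside 8.78% and 6.07% of all genes tested. Hspb1, a cytosolic heat shock gene, is among those called higher. For 4 further genes, Ern1, Mthfd2, Pdia5 and Pycr1, the plain FPKM ratio was above 2, and for Slc7a11 it was 0.478, but their differences in log2(FPKM + 1) were under the threshold (Mthfd2, Pdia5 and Pycr1 were chosen after their values were seen). With a pseudocount of 0.1 the counts were 12 higher and 1 lower, beside 10.5% and 7.36% of all genes tested. Between metastatic and localized, 7 were higher (5.38%) and 1 lower (0.769%), beside 9.08% and 7.29% of all genes tested. For the metastatic against the invasive library none was past 2-fold in log2(FPKM + 1), beside 1.33% higher and 1.67% lower among all genes tested. In that pair the plain ratio of Pycr1 was 0.463, with a difference of -0.80. The median differences of the 130 genes were 0.23, 0.17 and -0.08 in the same order of comparisons. Above 0 were 88, 87 and 48 of them, beside 49.8%, 50.4% and 48.6% of all genes tested.

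No sensor was called in any pair on the log2(FPKM + 1) scale. Of the 6 listed sensors and site proteases, the most abundant were the protease gene Mbtps1, with 63.3, 61.0 and 55.5 FPKM in the localized, invasive and metastatic libraries, and Atf6b, with 33, 35.1 and 33 FPKM. Ern1, which encodes IRE1, had 15.7, 32.2 and 21.4 FPKM, and Eif2ak3, which encodes PERK, had 7.64, 14.8 and 15.4 FPKM (both chosen after their values were seen). Their invasive minus localized differences in log2(FPKM + 1), 0.99 and 0.87, lay under the threshold. The plain ratio of Ern1 was 2.05, and its difference was 1.02 with a pseudocount of 0.5, which is past 2-fold. The plain ratio of Eif2ak3 for metastatic over localized was 2.01, with a difference of 0.92. In the metastatic library Ern1 was lower than in the invasive library (-0.57) and Eif2ak3 was close to it (0.05). Another eIF2alpha kinase gene differed in the other direction, within 2-fold. Eif2ak2, the double-stranded RNA kinase PKR and an interferon-responsive gene, had 23.8, 16.2 and 15 FPKM (chosen after its values were seen). The phosphatase subunit gene Ppp1r15b had 24.9, 35.9 and 37.3 FPKM.

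Among factors and targets of ATF4 and CHOP, a few genes were past 2-fold and the list medians were under 0.5. Of the 9 factors and feedback genes, Ddit4, an inhibitor of mTORC1 that also responds to hypoxia, was called, with 39.2, 110.1 and 89.1 FPKM in the localized, invasive and metastatic libraries and a list median of 0.20 for invasive against localized. The most abundant of this list, the stress protein gene Nupr1, had 111, 194 and 158 FPKM. Of 14 other targets, 13 passed the filter and 3 were higher in both comparisons with the localized library. Among all genes tested, 8.78% (invasive) and 9.08% (metastatic) were called higher than in the localized library, and among the 130 listed genes 6.15% and 5.38%. The secreted glycoprotein gene Stc2 had 17.8, 79.4 and 128 FPKM, the stress cytokine gene Gdf15 had 12.9, 51.0 and 65.5 FPKM, and the ER oxidase gene Ero1l had 64.6, 263 and 203 FPKM. Stc2 and Gdf15 had their highest value in the metastatic library, unlike Asns and Chac1. The cystine transporter gene Slc7a11 ran the other way with 18.3, 8.76 and 5.95 FPKM and was called lower in the metastatic than in the localized library (-1.47). Eif4ebp1, a translation inhibitor gene, had 130.3, 125 and 141 FPKM.

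Amino acid and tRNA charging genes, which ATF4 is known to raise together with Asns, mostly stayed within 2-fold. The 9 genes of serine, one-carbon and proline synthesis had medians of 0.38 (invasive minus localized), 0.20 (metastatic minus localized) and -0.15 (metastatic minus invasive), beside medians over all genes tested of -0.00, 0.00 and -0.01. The mitochondrial folate enzyme gene Aldh1l2 was called higher in the invasive library, with 3.10, 8.53 and 5.10 FPKM in the localized, invasive and metastatic libraries. Phgdh and Psat1, the abundant enzymes of serine synthesis, had 145, 186 and 173 FPKM and 121, 119 and 107 FPKM. Of the 18 cytosolic aminoacyl-tRNA synthetase genes, 15 were above 0 for invasive against localized, beside 49.8% of all genes tested. These 18 had 0 past 2-fold and a median of 0.26. The highest by mean over the 3 libraries, Nars and Gars, had 92.0, 151 and 127 FPKM and 89.9, 128 and 116 FPKM. In the metastatic against the invasive library 4 of the 130 listed genes were at least 1.5-fold lower, a share of 3.08% against 5.35% of all genes tested. They were Adm2, Pycr1, Aldh1l2 and Hspb1 (Adm2 and Pycr1 were chosen after their values were seen).

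Most genes of ER folding and degradation stayed within 2-fold. Of 14 other chaperones and co-chaperones, Dnajc10, a disulfide reductase gene of the ERAD route, and Hspa13, an Hsp70 relative of the ER, were at least 2-fold higher in both comparisons with the localized library. Among all genes tested, 8.78% (invasive) and 9.08% (metastatic) were. Dnajc10 had 94.3, 244 and 237 FPKM and Hspa13 had 9.83, 30.5 and 30.3 FPKM in the localized, invasive and metastatic libraries, and their metastatic minus invasive differences were -0.04 and -0.01, beside 0.01 for Herpud1. The lectin chaperone gene Calr had 364, 473 and 490.0 FPKM. The 10 disulfide isomerase and oxidase genes had 0 genes called and a median of 0.38 for invasive against localized. Pdia5, with 9.27, 19.5 and 14.5 FPKM, had a plain invasive over localized ratio of 2.1 and a difference of 1.03 with a pseudocount of 0.5, past 2-fold there. The most abundant, P4hb and Pdia3, had 542, 771 and 732 FPKM and 375, 354 and 327 FPKM. Of 15 ERAD genes, 14 passed the filter and 0 were past 2-fold, with a median of 0.20. Vcp, the segregase of that route, had 209, 169 and 179 FPKM, beside 58.6, 184 and 186 FPKM for Herpud1. The 14 translocon and signal peptidase genes had 0 past 2-fold and a median of 0.34; Sec61b had 224, 222 and 190.3 FPKM and Ssr3 had 204, 246 and 212 FPKM.

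**Figure D4:**
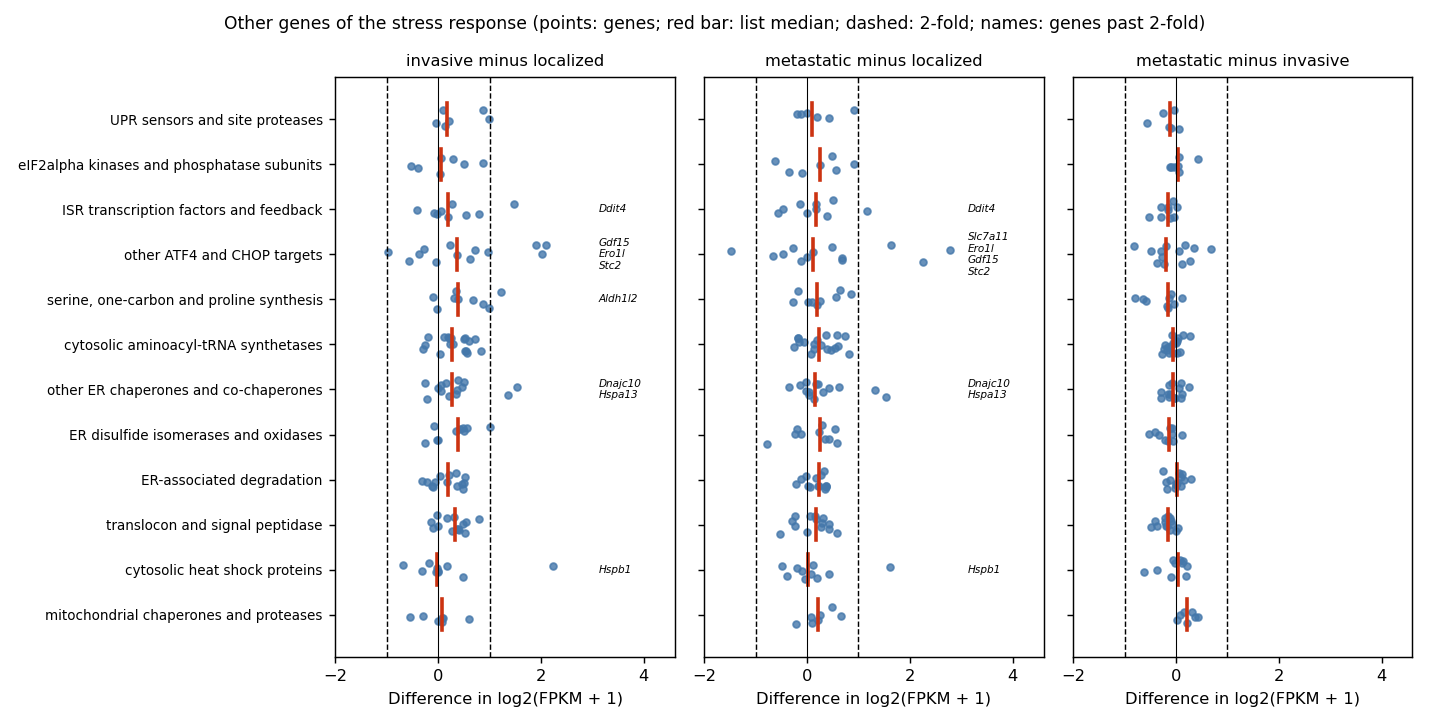
Difference in log2(FPKM + 1) of each other listed gene past the filter, by list, for the 3 pairs of libraries. Red bars are list medians, dashed lines mark 2-fold, and genes past 2-fold are named at the right of each panel; Eif2ak3 is drawn in both lists that hold it. The medians of the 130 genes are 0.23, 0.17 and -0.08 from left to right, with 8 genes past 2-fold in the left panel and 0 in the right panel.

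For the members that differed by at least 0.5 between some pair of libraries, the genes with the most similar profile were found by the Euclidean distance of centred log2(FPKM + 1) over the 3 libraries, among 8554 genes with a mean of at least 5 FPKM. With 3 points a profile is easily matched, and the number of genes within a distance of 0.1 shows how common it was. It was 4 for Chac1, 16 for Asns, 26 for Trib3 and 27 for Herpud1, against 85 for Xbp1, 112 for Atf4, 122 for Sdf2l1 and 256 for Ddit3. Among the nearest to Chac1 were Ksr1 (3.18, 11.4 and 7.13 FPKM in the localized, invasive and metastatic libraries) and St6gal1 (17.3, 56.8 and 36.6 FPKM). The nearest to Herpud1 were Slc46a1 (3.24, 12.2 and 12.6 FPKM), Myo6 and Card10, and the nearest to Asns were Samd5 (6.75, 18.7 and 16.1 FPKM), Gstm5 and Bach1. The nearest to Trib3 were Tbc1d2b (9.39, 10.4 and 6.18 FPKM), Emd and Dusp4. None of the genes named as nearest is a member or on a pathway list.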

How the data were processed

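Extraction used Trizol, and 1 ug of total RNA went into each Illumina TruSeq library, per the labels' protocols. The authors deposited FPKM per gene, 1 column per library. STAR 2.5.2a, FastQC 0.11.2, Cufflinks 2.2.1 and GRCm38 are named, without role or order, per the submitters' processing notes. The lowest value in each column was exactly 0.1, so 0.1 was subtracted from every deposited FPKM. Of 22784 entries, 27 with a spreadsheet date number for a symbol and 20 short or ribosomal RNA genes were left out. Depth was estimated from single-transcript genes over 2000 bases (GENCODE M21 lengths): of values worth 1 to 5 fragments, 75.5% to 78.1% lay within 0.1 of a whole number. Fragments of a member used its shortest coding transcript, a low estimate. Calls, lists, markers and motifs follow the rules given in the report; named genes outside the members were those past 2-fold or the 2 highest of a list, unless marked, and the 3 nearest in profile. Members and lists were chosen with earlier results of these data known. The call rule was checked on simulated data with known folds well past the threshold and counting error only. That check does not cover changes near 2-fold or variation between cultures. Alternatives were other pseudocounts, scalings, filters and thresholds. Copies of member transcripts (at least 200 bases at 95% identity) were sought in GENCODE. Protein sequence was not used here, and 1 allele of the genotype and 2 genes that the naming rule gives are not reported here. Python 3.11.15, pandas 2.3.3, numpy 2.4.6, scipy 1.17.1 and matplotlib 3.10.9 were used.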

Additional observations from a re-analysis of the deposited data

How the results depend on the processing

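Of 11 alternative settings, those of pseudocount, offset and scaling recomputed the member differences, and 207 of 210 kept their side of the 2-fold threshold and no called one changed sign; the exceptions were Chac1 for metastatic against localized, at 1.07 with a pseudocount of 0.1, 1.02 with 0.5 and 1.02 with libraries scaled to equal sums. Scaling moved the median of all genes tested by at most 0.06. The member medians ranged from 0.57 to 0.66 (invasive minus localized), 0.40 to 0.48 (metastatic minus localized) and -0.18 to -0.15 (metastatic minus invasive) over the pseudocounts and scalings. With a 1.5-fold threshold the members past it were 5 (invasive minus localized), 4 (metastatic minus localized) and 2 (metastatic minus invasive), against 3, 2 and 0 at 2-fold; with 3-fold the second count was 1. The other pathway genes past 1.5-fold were 25, 22 and 5 in the same order of comparisons, against 8, 8 and 0 at 2-fold. Higher were 23 (17.7% beside 15.1% of all genes tested), 18 (13.8% beside 15.9%) and 1 (0.769% beside 3.51%). Lower were 2 (1.54% beside 11.9%), 4 (3.08% beside 14.1%) and 4 (3.08% beside 5.35%). Past 3-fold there were 4 and 4 in the first and second comparisons. The share of all genes tested past 3-fold was not computed. With a pseudocount of 0.1 the other pathway genes past 2-fold were 13 in the first and 1 in the third comparison. The 1 in the third comparison was lower, where 3.27% of all genes tested were lower and 1.99% higher. In the first comparison the other pathway genes past 2-fold were 12 with a pseudocount of 0.5 and 7 with 5. They were 11 with equal sums, 11 with median-of-ratios scaling and 9 with upper-quartile scaling. Slc7a11 was the 1 called lower in those that had one. Of all genes tested, 9.78%, 5.04%, 9.65%, 9.09% and 8.23% were called higher in these settings, in the same order. The shares called lower were 6.61%, 3.15%, 7.05%, 5.90% and 6.48%. No paired analysis was possible because each group has 1 library, and no library could be left out. Each member had about 359 fragments or more in each library.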

Other observations

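Chaperones outside the ER, listed beside the members, had list medians of 0.22 or less in size, with 1 gene past 2-fold. The 10 cytosolic heat shock genes had medians of -0.02 (invasive minus localized), 0.02 (metastatic minus localized) and 0.04 (metastatic minus invasive). The abundant Hsp70 gene Hspa8 had 1580.0, 1567 and 1811 FPKM in the localized, invasive and metastatic libraries and the Hsp90 gene Hsp90ab1 had 1280.0, 1253 and 1246 FPKM. The small heat shock protein gene Hspb1, with 29.0, 140.1 and 90.8 FPKM, was past 2-fold in both comparisons with the localized library. Among all genes tested, 8.78% (invasive) and 9.08% (metastatic) were called higher. Dnaja1, an Hsp40 gene chosen after its values were seen, had 44.0, 27 and 31.1 FPKM, at least 1.5-fold lower in the invasive than in the localized library. The mitochondrial protease gene Lonp1, also chosen so, had 49.4, 74.7 and 78.3 FPKM, with differences of 0.59 and 0.66 from the localized library. The 7 mitochondrial chaperone and protease genes had medians of 0.07, 0.21 and 0.22, with 0 past 2-fold in any pair. All 7 were above 0 for metastatic against invasive, beside 48.6% of all genes tested. In that pair the median of the 10 stress response genes was -0.17. The mitochondrial Hsp60 gene Hspd1 had 214, 174 and 224 FPKM and the Hsp70 gene Hspa9 had 199, 209.6 and 212 FPKM. The 6 leukocyte and endothelial markers summed to 5.05, 11.3 and 10.3 FPKM in the localized, invasive and metastatic libraries, with Cd3e listed at 0 in each and Cd68, a macrophage and lysosome gene, at 4.82, 10.5 and 9.93 FPKM.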
